A study of Mus musculus with 5 samples.

Results

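The MEF2 transcription factors Mef2a, Mef2b, Mef2c and Mef2d and the class IIa histone deacetylases Hdac4, Hdac5, Hdac7 and Hdac9 were examined in the mouse hippocampus after seizures. The 8 genes were selected by symbol, and each symbol belonged to a single entry among the 55385 genes counted. The study sequenced total hippocampal RNA of 3 month old male C57/bl6 mice in 5 libraries. The control library came from untreated animals, and the other libraries came from mice given kainic acid (20 mg/kg) into the peritoneum and killed 1 h (1 library), 4 h (2 libraries, replicates 1 and 2) or 8 h (1 library) after their seizures began. Kainic acid activates glutamate receptors and strongly excites hippocampal neurons. Tissue was kept only from animals that reached a set severity on a behavioural seizure scale, and the control animals received no injection that the labels name. The number of mice behind each library is not stated, so p-values measure only the spread between these samples, which may be technical.

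MEF2 proteins bind an AT-rich DNA element through their MADS box and MEF2 domain and control genes that neurons use in response to activity, among them genes that limit the number of excitatory synapses. Class IIa deacetylases bind MEF2 on DNA and recruit corepressors, so that MEF2 targets are held down. Calcium-dependent kinases phosphorylate these deacetylases, which are then bound by 14-3-3 proteins and leave the nucleus, and the phosphatase calcineurin acts on MEF2 itself. Much of this control is on the proteins, which counts of RNA do not measure.

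Gene counts summed to 19100374 for the control library, 17744508 for 1 h, 18250114 and 19109204 for the 4 h pair (replicates 1 and 2) and 16612225 for 8 h. Values are given as normalised CPM, which are counts after TMM scaling of the libraries for size and composition to a common total (CPM), or as normalised CPM per kb of annotated exons where genes are compared with each other. Intervals are exact 95% intervals and cover counting error only. The pair at 4 h supplied the only residual degree of freedom of the model, and the single libraries were assumed to vary like that pair.

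The libraries were checked with immediate early genes and with markers of hippocampal cells. Fos, an immediate early gene, had 10.8 normalised CPM in the control, 999 at 1 h, 519 and 70.4 in replicates 1 and 2 at 4 h, and 17.2 at 8 h. Npas4, a neuronal activity factor, had 3.92, 694, 130, 4.92 and 5.13 normalised CPM in the same order. Both genes were highest at 1 h, and at 4 h replicate 1 lay far above replicate 2. Of 6 immediate early genes, all 6 were at least 1.5-fold above the control at 1 h and 3 were so in both libraries at 4 h, against 10.9% and 10.1% of all genes tested. The 5 neuron markers summed to 4851 normalised CPM in the control and to between 4699 and 5650 in the kainic acid libraries, with Map2 the most abundant. Map2 had 1729 normalised CPM in the control and 2465 and 2094 in replicates 1 and 2 at 4 h, whereas Rbfox3 had 119, 82 and 82.4. Of the 4 dentate granule cell markers, Prox1 was the most abundant over the 5 libraries and Calb1 in the control (102 normalised CPM). The 4 summed to 264 in the control and to between 217 and 276 in the others. That sum joins genes of opposite direction, since 3 of the 4 had an unadjusted p under 0.05 at 4 h, against 11.6% of all genes tested. Prox1 had 60 normalised CPM in the control and 172 and 120 in replicates 1 and 2 at 4 h, Dsp had 72.2, 4.34 and 13.6, and C1ql2 had 29.3, 11 and 11.7. The kainic acid libraries ranged from 490 to 815 normalised CPM for the 5 interneuron markers (Gad1 most abundant, control 480), from 3208 to 3882 for the 4 astrocyte markers (Slc1a2, control 3028) and from 2377 to 3807 for the 4 oligodendrocyte markers (Mbp, control 2581). The astrocyte sum is mostly Slc1a2. Gfap, of the same list, had 221 normalised CPM in the control, 596 and 510 at 4 h and 587 at 8 h, and 3 of the 4 astrocyte markers and 2 of the 5 interneuron markers (Gad1 and Gad2) had an unadjusted p under 0.05 at 4 h, against the same 11.6%. No marker of these lists was at 0 in all libraries.

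Among the marker and pathway lists examined, the pair at 4 h differed most in the choroid plexus, an epithelium that lies in the ventricle beside the hippocampus. Its 3 markers, led by Ttr, summed to 3894 normalised CPM in the control, 1642 at 1 h, 26 in replicate 1 and 4142 in replicate 2 at 4 h, and 3010 at 8 h. Replicate 1 at 4 h also had the largest share of reads on no gene, 33.1% against 25.3% in replicate 2, 30.9% at 8 h, 29% at 1 h and 24.7% in the control. Over the 19768 genes tested, the log2 ratio of replicate 1 to replicate 2 had an SD of 0.52 after 0.5 CPM was added, and 1112 genes differed at least 2-fold. The part of these differences in the values of the MEF2 and deacetylase genes was not tested. In tissue RNA, fewer cells of a type and less RNA per cell cannot be told apart.

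**Figure D1:**
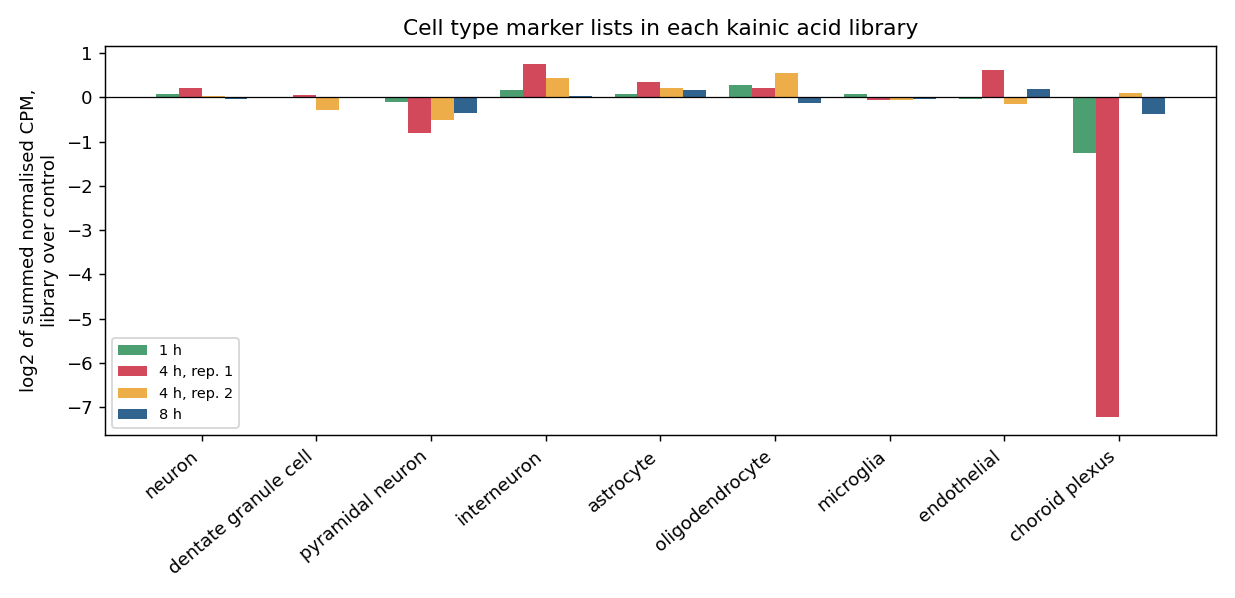
Log2 ratio of the summed normalised CPM of each cell type marker list to the control (vertical axis), for each kainic acid library (bars, 1 library each, no error). The choroid plexus list stands apart in replicate 1 at 4 h, where it summed to 26 normalised CPM against 3894 in the control.

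With edgeR's quasi-likelihood test and an adjusted p under 0.05, 0 of the 7 tested MEF2 and class IIa genes differed from the control at 1 h, at 4 h or at 8 h, where 0% of all genes tested passed at 1 h, 0.00506% (1 gene) at 4 h and 0% at 8 h. DESeq2 and limma-voom also called 0 of them at each time point. Of all genes tested, DESeq2 called 49, 233 and 32 at 1, 4 and 8 h, and limma-voom called 0 at each. An unadjusted p under 0.05 was found for 0 of the 7 at each time point, while 2.42%, 11.6% and 4.51% of all genes tested had one at 1, 4 and 8 h. By size alone, with both libraries required at 4 h, 0 of the 7 were at least 1.5-fold higher than the control at 1, 4 or 8 h, against 10.9%, 10.1% and 14.1% of all genes. At least 1.5-fold lower were 0 at 1 h, 0 in both libraries at 4 h and 1 (Hdac9) at 8 h, against 9.25%, 6.28% and 8.98% of all genes. Mef2b did not pass the filter on low counts and has no test. In replicate 1 at 4 h alone, Mef2c (ratio 1.51) and Hdac7 (ratio 0.588) were past these limits. The 3 comparisons share the control library.

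**Figure D2:**
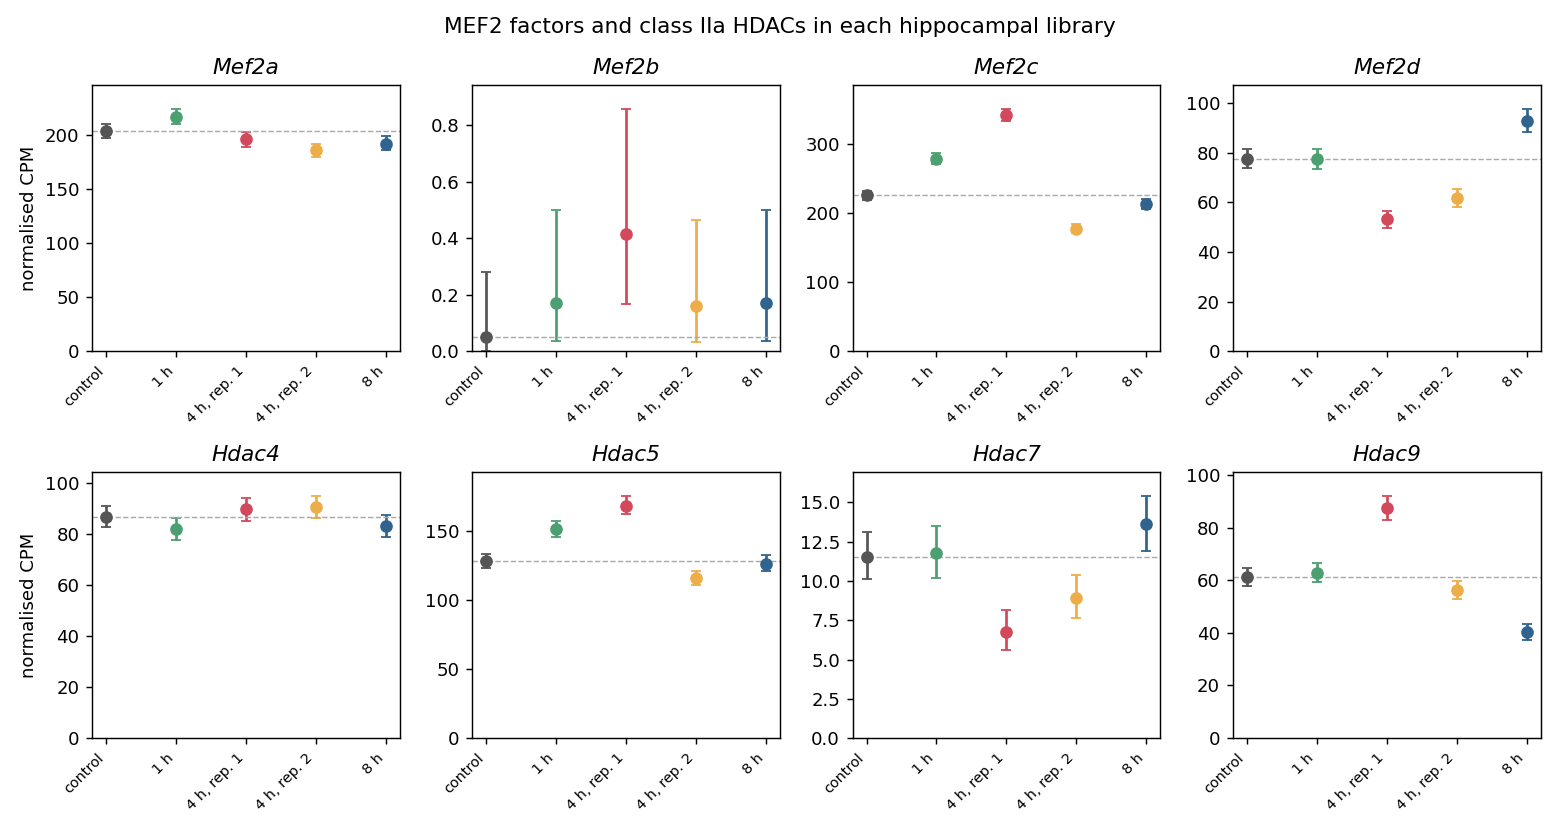
Normalised CPM (vertical axes, starting at 0) of the 8 genes in each library, with exact Poisson 95% intervals as bars and the control as a dashed line. Mef2d and Hdac7 lie under the control in both libraries at 4 h and above it at 8 h, and Hdac9 has its lowest value, 40.2 normalised CPM, at 8 h.

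Mef2d (ENSMUSG00000001419.17) and Mef2a were under the control in both libraries at 4 h, Mef2d by more. It occupies positions 88142372 to 88172086 of chromosome 3 (GRCm38, plus strand), with 7 annotated transcripts in GENCODE M21. Its counts were 1543 in the control, 1360 at 1 h, 894 and 1164 in replicates 1 and 2 at 4 h, and 1628 at 8 h, or 77.5, 77.4, 53.1, 61.6 and 92.9 normalised CPM. Both libraries at 4 h lay under the other 3 libraries, and the 8 h library was the highest of the 5. The ratio to the control was 0.685 (interval 0.63 to 0.744) in replicate 1 and 0.794 (0.735 to 0.857) in replicate 2 at 4 h, and 1.2 (1.12 to 1.29) at 8 h. The log2 fold change was -0.43 (SE 0.18) at 4 h, lower in 2 of 2 libraries, with a Benjamini-Hochberg adjusted p of 0.443 in the quasi-likelihood test of edgeR, which did not pass. Of all genes tested, 16.3% had a lower log2 fold change at 4 h. Exons of 1700113A16Rik on the opposite strand cover 8.87% of the exon length of Mef2d, and this gene had between 8 and 28 counts in the 5 libraries. Of the 4 pyramidal neuron markers, Neurod6 and Fibcd1 were also lowest in the 2 libraries at 4 h, and Wfs1 and Spink8 were not. Neurod6, the most abundant, had 144 normalised CPM in the control, 145 at 1 h, 60.9 and 67.1 in replicates 1 and 2 at 4 h, and 104 at 8 h. The list summed to 376, 351, 217, 265 and 296 in the same order. Their part in the values of Mef2d was not tested.

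Mef2c, a factor of forebrain neurons that is also expressed in microglia, is ENSMUSG00000005583.16 on chromosome 13 from 83504034 to 83667080 on the plus strand, with 31 annotated transcripts. Its counts were 4505 in the control, 4901 at 1 h, 5767 and 3371 in replicates 1 and 2 at 4 h, and 3745 at 8 h, which are 226, 279, 343, 178 and 214 normalised CPM. The highest and the lowest of the 5 values both came from the 4 h pair, which therefore lay on either side of the control. The pair differed 1.92-fold, as much as the whole range of the gene. The fitted log2 fold change for 4 h was 0.20 (SE 0.38), and it was 0.60 without replicate 2 and -0.34 without replicate 1. At 1 h it was 0.30 (SE 0.44) and at 8 h -0.08 (SE 0.44). Among markers of microglia, P2ry12 had 31.9 normalised CPM in the control and 13.9 and 17.8 in replicates 1 and 2 at 4 h, Cx3cr1 had 32.1, 24.9 and 24.2, and C1qa had 23.1, 32.4 and 29.1. These markers differed in direction, and their part in the values of Mef2c was not tested.

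Mef2a (ENSMUSG00000030557.17, chromosome 7 from 67231163 to 67372858 on the minus strand) had the narrowest range of the MEF2 factors. It was measured at 204 normalised CPM in the control, 217 at 1 h, 196 and 186 in replicates 1 and 2 at 4 h, and 192 at 8 h. The 1 h library lay above the control and the 3 later libraries under it, with a highest to lowest ratio of 1.17. The log2 fold changes were 0.09 (SE 0.18), -0.09 (SE 0.16) and -0.08 (SE 0.18) at 1, 4 and 8 h. Lysmd4 on the opposite strand overlaps 2.06% of its exon length.

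Mef2b (ENSMUSG00000079033.10, chromosome 8 from 70139711 to 70167488 on the plus strand) was near the limit of detection. A single count (1) was found in the control, 3 at 1 h, 7 and 3 in replicates 1 and 2 at 4 h, and 3 at 8 h. A floor of 3 counts per library corresponds to between 0.151 normalised CPM in the control and 0.178 in replicate 1 at 4 h, and replicate 1 at 4 h was the only library above the floor. Its ratio to the control was 8.27 with a counting interval from 1.06 to 373. Exons of Borcs8 on the same strand cover 4.42% of those of Mef2b, and Borcs8 had between 224 and 331 counts.

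Of the deacetylases, Hdac7 (ENSMUSG00000022475.19) had a pattern over the libraries like that of Mef2d. Hdac7 is known for its role in endothelial cells and in developing thymocytes, and the gene lies on chromosome 15 from 97792664 to 97844502 on the minus strand. It had 229 counts in the control, 207 at 1 h, 114 and 169 in replicates 1 and 2 at 4 h, and 238 at 8 h, or 11.5, 11.8, 6.77, 8.94 and 13.6 normalised CPM. Both libraries at 4 h lay under the other 3, and the 8 h library was the highest. The ratio to the control was 0.588 (interval 0.466 to 0.74) in replicate 1 and 0.777 (0.633 to 0.952) in replicate 2 at 4 h. At 8 h it was 1.18 (0.98 to 1.42), an interval that includes 1 and covers counting error only. The fitted log2 fold change of Hdac7 at 8 h, from a single library, was 0.24 (SE 0.35). At 4 h its log2 fold change was -0.54 (SE 0.30), lower in 2 of 2 libraries, with an adjusted p of 0.536 in the same test. The 5 endothelial markers, led by Flt1, summed to 86 normalised CPM in the control, 84.3 at 1 h, 132 and 77 in replicates 1 and 2 at 4 h, and 98.4 at 8 h. Single markers differed in direction. Tek had 13.3, 10.8, 7.19, 6.19 and 10.3 normalised CPM in the same order, lowest at 4 h like Hdac7, whereas Cdh5 had 5.33 in the control and 18.1 and 7.19 in replicates 1 and 2 at 4 h, and Cldn5 had 14.1 in the control and 13.7 and 9.94 at 4 h. The part of endothelial cells in the values of Hdac7 was not tested. Exons of Slc48a1 on the opposite strand cover 0.429% of the exon length of Hdac7, and Slc48a1 had between 1063 and 1639 counts in the 5 libraries.

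Hdac9 (ENSMUSG00000004698.11), a deacetylase also known for a short form without the catalytic domain, lies on chromosome 12 from 34047580 to 34917095 on the minus strand. It had 1220 counts in the control, 1104 at 1 h, 1472 and 1062 in replicates 1 and 2 at 4 h, and 704 at 8 h, which are 61.3, 62.8, 87.4, 56.2 and 40.2 normalised CPM. The 8 h library was the lowest of the 5, and the pair at 4 h again lay on either side of the control. The ratio to the control was 0.655 (interval 0.596 to 0.719) at 8 h, 1.43 (1.32 to 1.54) in replicate 1 and 0.916 (0.843 to 0.996) in replicate 2 at 4 h. The 8 h library had a log2 fold change of -0.61 (SE 0.34), and the 4 h pair one of 0.23 (SE 0.30). Their Benjamini-Hochberg adjusted p in the quasi-likelihood test of edgeR were 1 and 0.79. Without replicate 1 the value at 4 h was -0.13. Of all genes tested, 7.57% had a lower log2 fold change at 8 h, where a single library was measured. Counts on the whole gene join all transcripts, so the short form was not resolved.

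Hdac5, which is exported from the nucleus of active neurons, is ENSMUSG00000008855.17 on chromosome 11 from 102194432 to 102230166 on the minus strand. It had 128 normalised CPM in the control, 151 at 1 h, 168 and 116 in replicates 1 and 2 at 4 h, and 126 at 8 h. As for Mef2c, the pair at 4 h held both the highest and the lowest value. At 4 h its log2 fold change was 0.15 (SE 0.26), 0.40 without replicate 2 and -0.15 without replicate 1.

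Hdac4 (ENSMUSG00000026313.16, chromosome 1 from 91928779 to 92195699 on the minus strand) had the narrowest range of the 8 genes. It was measured at 86.7 normalised CPM in the control, 81.8 at 1 h, 89.6 and 90.5 in replicates 1 and 2 at 4 h, and 83.1 at 8 h. The 5 libraries lay within a ratio of 1.11, and the counting intervals of the ratios to the control included 1 in all 4 kainic acid libraries. Its log2 fold change at 4 h, 0.05 (SE 0.16), changed sign to -0.07 with scaling by library size alone, which moved the median of all genes at 4 h from 0.01 to -0.11. Exons of Gm26720 on the opposite strand cover 22.4% of the exon length of Hdac4. The strand setting of the counting is not given in the sources used here, so reads of the 2 genes may not have been separated.

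**Figure D3:**
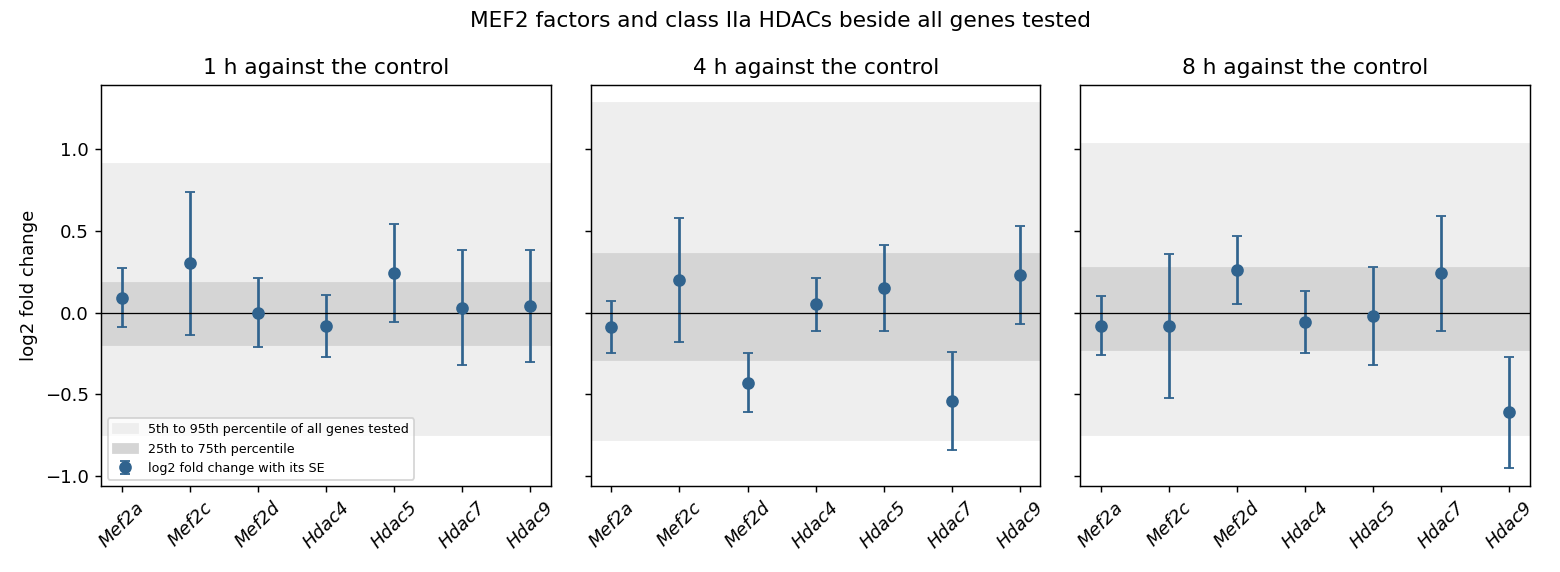
Log2 fold change against the control (vertical axis) of the 7 genes tested, with its SE as bars, at 1, 4 and 8 h, over bands that hold the central part of all 19768 genes tested. All 7 genes lie inside the 5th to 95th percentile band at each time point. The 4 h values of Mef2d (-0.43) and Hdac7 (-0.54) and the 8 h value of Hdac9 (-0.61) lie under the 25th percentile. The 1 h values of Mef2c (0.30) and Hdac5 (0.24) lie over the 75th percentile.

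The time points were also compared with each other, which was added after the data were seen. From 4 h to 8 h the log2 fold change was 0.69 (SE 0.18) for Mef2d, 0.78 (SE 0.30) for Hdac7 and -0.84 (SE 0.30) for Hdac9. The 8 h library lay above both 4 h libraries for Mef2d (ratios 1.75 and 1.51) and Hdac7 (2.01 and 1.52), and under both for Hdac9 (0.459 and 0.715). Their Benjamini-Hochberg adjusted p in the quasi-likelihood test of edgeR were 0.476, 0.559 and 0.548, so 0 of the 7 passed, and 0% of all genes did. These 3 of the 7 had an unadjusted p under 0.05, against 8.73% of all genes. Between 1 h and 4 h, 0 of the 7 passed the adjusted (0.00506% of all genes) or the unadjusted threshold (7.94%), and between 1 h and 8 h, 0 passed either (0% and 5.89%).

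Per kb of exons, the mean level over the 5 libraries was 15.8 ± 4.07 normalised CPM per kb (SD, n = 5) for Mef2c, 15.7 ± 2.44 for Hdac5, 13.5 ± 0.812 for Mef2a and 12.1 ± 2.59 for Mef2d. The ranges of these neighbours overlapped, so their order is not resolved. Hdac4 followed at 5.46 ± 0.243 and Hdac9 at 4.2 ± 1.16 normalised CPM per kb, again with overlapping ranges. Hdac7 at 1.56 ± 0.395 and Mef2b at 0.138 ± 0.0957 normalised CPM per kb lay under all values of the genes before them. The summed level of the 4 MEF2 factors was 41.3 normalised CPM per kb in the control, 45.6 at 1 h, 44.3 and 34.4 in replicates 1 and 2 at 4 h, and 42.3 at 8 h. For the 4 deacetylases it was 25.9, 28.4, 31.8, 24 and 24.4 normalised CPM per kb in the same order. In both families replicate 2 at 4 h had the lowest sum.

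**Figure D4:**
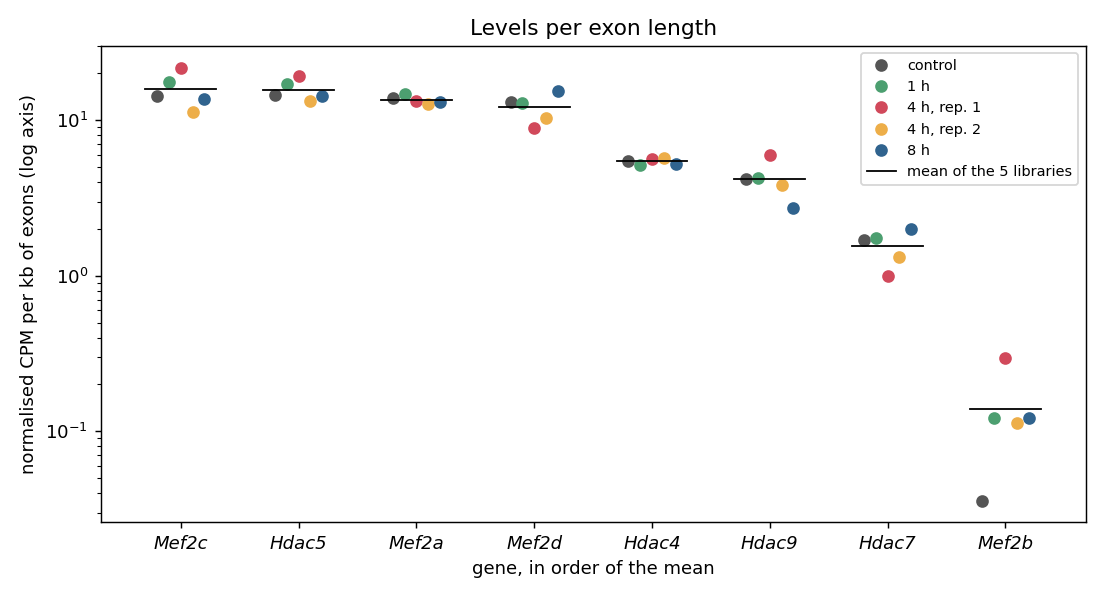
Normalised CPM per kb of annotated exons (vertical axis, log scale) of each gene in each library (points), in order of the mean over the 5 libraries (line). Mef2c, Hdac5, Mef2a and Mef2d overlap between 8.87 and 21.8 normalised CPM per kb, and Mef2b lies under 0.3.

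RefSeq promoter windows of GRCm38.p6, from 250 bases before to 50 after an annotated start, were found for all 8 genes and numbered 14. They were searched on both strands for the MEF2 consensus element, the cAMP response element TGACGTCA and its part TGACG, which overlaps the full element. The MEF2 matches are shown because this is the element that the factors themselves bind. The consensus was found in 2 of the 14 windows, of Mef2a and Hdac5, and in 3.19% of all 32851 windows. Each is printed from 5′ to 3′ on the strand of the gene, with the match in capitals.
Mef2a (chr7:67372841-67372870, minus strand): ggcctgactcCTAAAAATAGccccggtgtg
Hdac5 (chr11:102230173-102230202, minus strand): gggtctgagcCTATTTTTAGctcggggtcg
The match lies from position -2 to 8 relative to the start in Mef2a and from -20 to -11 in Hdac5. The full cAMP response element was found in 0 of the 14 windows (1.79% of all windows), and TGACG in 2 of them, of Hdac4 and Hdac5 (20.8% of all windows). A match describes the letters of the window and does not show that a factor binds there.

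Genes that act with MEF2 and the deacetylases were read from lists. With adjusted p under 0.05 from edgeR's quasi-likelihood test, 0 genes of these lists passed in either direction at 1, 4 or 8 h. At an unadjusted p under 0.05, 2 of the 7 other histone deacetylases were counted at 4 h, namely Hdac1 and Hdac10, against 11.6% of all genes tested. At 8 h, 1 of the 7 (Hdac11) had such a p, against 4.51% of all genes, and 1 (Hdac1) was at least 1.5-fold lower, against 8.98%. At 4 h, 1 (Hdac10) was at least 1.5-fold lower in both libraries, against 6.28%. Hdac1 and Hdac10 had the lowest log2 fold changes of their list at 4 h, -0.78 (SE 0.28) for Hdac1 and -0.86 (SE 0.31) for Hdac10, and Hdac3 and Hdac6 had the highest, 0.14 (SE 0.18) and 0.27 (SE 0.19). The median of the list was -0.31 at 4 h, against 0.01 for all genes tested. By library its median log2 ratio (0.01 CPM added) was -0.38 in replicate 1 and -0.24 in replicate 2. For the 7 class IIa and MEF2 genes tested the median was 0.05, and by library the median log2 ratio (0.01 CPM added) was 0.05 in replicate 1 and -0.15 in replicate 2.

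Of 15 kinases that phosphorylate class IIa deacetylases, 4 had an unadjusted p under 0.05 at 4 h, and 3 were at least 1.5-fold above the control in both libraries, against 11.6% and 10.1% of all genes tested. These 3 were the salt-inducible kinases Sik1, Sik2 and Sik3. Sik2 rests mostly on replicate 1, with a ratio to the control of 4.72 there and 1.64 in replicate 2. Sik1 had 13.8 normalised CPM in the control, 110 at 1 h, 111 and 48.9 in replicates 1 and 2 at 4 h, and 14.7 at 8 h. The log2 fold changes at 4 h were 2.52 (SE 0.54) for Sik1 and 1.67 (SE 0.63) for Sik2, the highest of the list, and -0.53 (SE 0.17) for Camk2g and -0.33 (SE 0.21) for Camk1, the lowest. The median of the list was -0.10, with a median log2 ratio of 0.01 in replicate 1 and -0.15 in replicate 2 (0.01 CPM added). At 8 h, 2 of the 15 were at least 1.5-fold lower, Camk2d and Camk2g, against 8.98% of all genes.

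Of 8 kinases and phosphatases listed as acting on MEF2, 3 (Mapk7, Mapk14 and Ppp2ca) had an unadjusted p under 0.05 at 4 h, against 11.6% of all genes tested. The highest log2 fold changes were 1.09 (SE 0.24) for Mapk7, the kinase ERK5, and 0.71 (SE 0.21) for Ppp2ca, a catalytic subunit of PP2A. The lowest were -0.61 (SE 0.17) for Mapk14, the kinase p38 alpha, and -0.22 (SE 0.17) for Cdk5. Mapk7 had 14.6 normalised CPM in the control, 10.6 at 1 h, 31.8 and 30.4 in replicates 1 and 2 at 4 h, and 22.7 at 8 h, so both libraries at 4 h lay above all others.

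Among 8 corepressors and other repressors of MEF2, 1 (Tbl1xr1) had an unadjusted p under 0.05 at 4 h, which is near the 11.6% of all genes tested. The lowest log2 fold changes at 4 h were -0.42 (SE 0.17) for Tbl1xr1 and -0.25 (SE 0.15) for Cbx5, and Cabin1 had 0.17 (SE 0.17). Of 4 coactivators, 0 had an unadjusted p under 0.05 at any time point, with log2 fold changes at 4 h of -0.24 (SE 0.26) for Kat2b, -0.02 (SE 0.22) for Ep300, -0.00 (SE 0.17) for Ncoa2 and 0.06 (SE 0.21) for Crebbp. Of 7 genes of 14-3-3 proteins, 0 had an unadjusted p under 0.05 at any time point, and at 4 h the ends of the list were -0.14 (SE 0.16) for Ywhah, 0.02 (SE 0.16) for Ywhag, 0.30 (SE 0.17) for Ywhaz and 0.55 (SE 0.54) for Sfn.

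Genes described as MEF2 targets in neurons or muscle spanned a wider range than the factors. Of 14 such genes 12 were tested, and Ckm and Myog, genes of muscle, were not. At 1 h 7 of the 12 had an unadjusted p under 0.05 and 9 were at least 1.5-fold above the control, at 4 h 6 and 6, and at 8 h 1 and 2. At 8 h, 3 of the 12 (Nr4a1, Pcdh10 and Klf2) were at least 1.5-fold lower, and the gene with an unadjusted p under 0.05 was Pcdh10, with a log2 fold change of -0.66 (SE 0.24). Of all genes tested, 2.42%, 11.6% and 4.51% had such a p at 1, 4 and 8 h, 10.9%, 10.1% and 14.1% were at least 1.5-fold higher, and 8.98% were at least 1.5-fold lower at 8 h, so the 2 of 12 higher at 8 h are near the share of all genes. Their median log2 fold changes at 1, 4 and 8 h were 2.11, 1.20 and -0.14. The value at 4 h depends on the library, with a median log2 ratio to the control (0.01 CPM added) of 1.72 in replicate 1 and 0.43 in replicate 2. At 4 h the highest values were 3.61 (SE 0.59) for Bdnf and 3.58 (SE 0.69) for Arc, and Klf2 had -0.22 (SE 0.43). Bdnf had 43.6 normalised CPM in the control, 208 at 1 h, 754 and 316 in replicates 1 and 2 at 4 h, and 96.7 at 8 h. The 9 genes higher at 1 h were Arc, Nr4a1, Homer1, Bdnf, Jun, Klf2, Klf4, Klf6 and Rgs2. Arc and Nr4a1 are also in the list of immediate early genes, and the study counts Homer1 and Bdnf among canonical activity-regulated transcripts. The list thus holds genes already known to respond to activity, so its counts and medians do not describe MEF2 targets as a class. Whether MEF2 acts on any of these genes here was not tested.

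**Figure D5:**
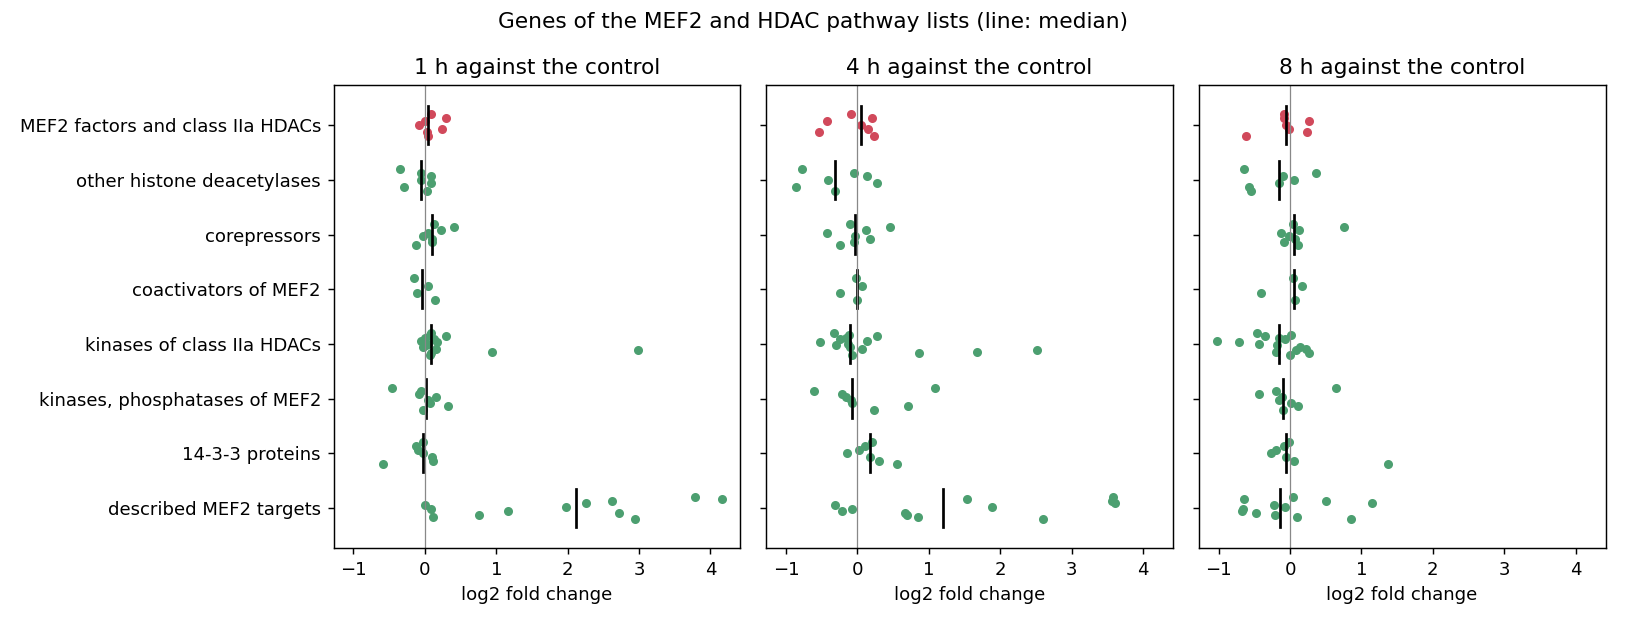
Log2 fold change against the control (horizontal axis) of each tested gene (points) in the pathway lists, with the median of each list as a line, at 1, 4 and 8 h. The described MEF2 targets spread furthest to the right at 1 h (median 2.11) and 4 h (median 1.20, with 1.72 in replicate 1 and 0.43 in replicate 2), while the MEF2 factors and class IIa HDACs lie between -0.61 and 0.30 at the 3 time points.

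Of the 8 genes, Hdac9 and Hdac7 had the largest ranges over the libraries among those with a mean of at least 1 normalised CPM. The genes nearest to each were found by the Euclidean distance of log2 normalised CPM relative to the control over the 4 kainic acid libraries, among 11881 genes. Nearest to Hdac9 were Ccdc136 (distance 0.184), Plxdc2 (0.199) and Tenm1 (0.204). Ccdc136 had 59.8, 56.4, 82.3, 50.6 and 37.8 normalised CPM in the control, at 1 h, in replicates 1 and 2 at 4 h and at 8 h. Nearest to Hdac7 were Lrif1 (0.0877), Zfyve26 (0.106) and Arhgef17 (0.122). Lrif1 had 12.4, 13.1, 7.6, 9.89 and 14.9 normalised CPM in the same order, with both libraries at 4 h under the other 3. All of these genes were chosen for their likeness from 11881, so the shared patterns follow from the choice and are not a separate result.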

How the data were processed

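The authors made stranded total RNA libraries, aligned the paired-end reads and deposited a count of reads per gene for each library, without normalisation. The submitters' processing notes name STAR 2.5.1b, HTSeq and the build GRCm38.p4. For HTSeq, its version, strand setting and annotation were not given in the sources used here. Reads on no gene (24.7% to 33.1% of reads), ambiguous reads (1.26% to 1.52%) and reads aligned more than once (9.67% to 11.6%) were left out. Gene models came from GENCODE M21, in which 55144 of 55385 identifiers were found.

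The model was fitted with edgeR 4.0.16 in R 4.3.3 (filterByExpr, TMM, quasi-likelihood test), with all 5 libraries in 4 groups. The filter left 19768 genes. The common dispersion was 0.0565 and the prior degrees of freedom 4.42. The 1, 4 and 8 h groups were each compared with the control, with Benjamini-Hochberg adjustment over all genes tested and a threshold of 0.05. Log2 fold changes used a prior count of 2, and SE were derived from the F statistic and the coefficient without shrinkage. Alternatives used RLE factors, library size alone, no filter, a prior count of 0.125, DESeq2 1.42.0, limma-voom (limma 3.58.1) and each 4 h library left out. DESeq2 was first run on all genes with a count. After those results were seen, and partly in the hope of meeting the counts of an earlier analysis of these data, it was rerun on the filtered genes. The rerun did not meet them, and both runs are given. Both used the size factors of DESeq2, so the scaling differed from TMM as well as the test. Intervals are exact Poisson intervals of 95% for counts and exact conditional binomial intervals for ratios. Figures used Python 3.11.15 and matplotlib 3.10.9.

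Named genes were the 8 MEF2 and class IIa genes, the 2 highest and 2 lowest at 4 h of each pathway list, immediate early genes and markers, and the 3 genes of nearest pattern for the 2 genes with the largest range. Some genes that this rule names are not reported here. Genes named beyond this rule (those that a count of 5 or fewer refers to, and genes that overlap the 8) were chosen after their values were seen. The genes and lists were chosen with earlier results of these data known.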

Additional observations from a re-analysis of the deposited data

How the results depend on the processing

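Of the MEF2 and class IIa genes tested (7, as Mef2b did not pass the filter, and 8 without a filter), 0 passed an adjusted p of 0.05 at 1, 4 or 8 h with edgeR's quasi-likelihood test under TMM, RLE factors, library size alone or no filter, with DESeq2 or with limma-voom. An unadjusted p under 0.05 was found for 1 of them at 4 h with library size alone, for 1 at 4 h and 1 at 8 h without a filter, and for 0 otherwise. Over all genes, 2710 of 19768 had such a p at 4 h with library size alone, so 1 of 7 is near the share of all genes. Without a filter 3651 genes had one at 4 h and 1646 at 8 h. The number of genes tested without a filter is not given here, so those counts of 1 cannot be set beside a share. All alternatives but the fits without a 4 h library used the same 5 libraries, so agreement in sign was largely built in. Of 140 log2 fold changes under alternatives that could move them, 134 kept their sign. The other 6 were Hdac7 at 1 h (-0.039), Hdac9 at 1 h (-0.038) and Hdac4 at 4 h (-0.069) with library size alone, which moved the median of all genes to -0.08 at 1 h and -0.11 at 4 h, and Mef2c (-0.34), Hdac5 (-0.15) and Hdac9 (-0.13) at 4 h without replicate 1. Leaving out each 4 h library gave, with no test, -0.34 to 0.60 for Mef2c, -0.15 to 0.40 for Hdac5 and -0.13 to 0.51 for Hdac9. Over all genes, the calls at 1, 4 and 8 h were 0, 1 and 0 with edgeR under TMM, 57, 237 and 22 with library size alone, 285, 1300 and 279 without a filter, and 49, 233 and 32 with DESeq2 on the filtered genes. DESeq2 on all genes with a count, the run made first, gave 50, 224 and 33. The run on the filtered genes was made after these counts were seen. RLE factors and limma-voom called 0 at each time point, with an unadjusted p under 0.05 for 2204 and 2145 genes at 4 h. The cause of these differences was not tested. No paired analysis was possible because the groups share fewer than 2 replicate numbers.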
